A study of Mus musculus with 39 samples.

Results

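The loci described here are 10 maternally methylated imprinted regions of the mouse genome: Snrpn, Peg3, Mest, Peg10, Nnat, Gnas/Nespas, Plagl1, Grb10, Kcnq1ot1 and Igf2r/Airn. Members were all CpGs and all 200 bp tiles that start in fixed windows of mm9 around these loci, whatever their methylation. The windows held 170 of the 330387 single CpGs and 103 of the 377684 tiles in the deposited tables. Gnas/Nespas gave 76 of the CpGs and 41 of the tiles, Nnat gave 45 and 15, and Snrpn gave 1 CpG and 4 tiles.

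The series profiled DNA methylation in wild type (WT) and p53-deficient mouse embryonic stem cells (mESC) and in liver of both genotypes. The protein p53 is a stress-responsive transcription factor encoded by Trp53. The mESC were derived from E2.5 morulas of heterozygous 129s-Trp53tm2Tyj/J parents and kept on irradiated feeder cells in 2i and LIF, which hold them in the naive state, or, after removal of feeders, treated for 4 days with 1 uM retinoic acid (RA), which induces differentiation. Liver came from males of 16 weeks, WT or p53-/-, born to p53 heterozygous parents. Reduced representation bisulfite sequencing (RRBS) sequences MspI fragments, which begin at CCGG sites, and reads 5-methylcytosine (5mC) together with 5-hydroxymethylcytosine (5hmC), here called total methylation, while its oxidative form (oxRRBS) reads 5mC alone. With RRBS there were 5 WT and 3 p53-null naive libraries, 5 WT and 4 p53-null RA libraries, and 3 WT and 3 p53-null livers. With oxRRBS there were 5 WT and 3 p53-null naive libraries and 4 WT and 4 p53-null RA libraries, and none from liver. The labels do not say how many cell lines or embryos the mESC libraries represent.

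The deposited tables hold 1 pooled value per group and no read counts, so the read depth is unknown. No SD and no n can be given, and no difference below was tested against the spread between libraries. Significance comes solely from the q-values in the authors' deposited table, which compare p53-null with WT per tile. That table has a first and a second set of mESC columns. Their headings name genotype and modification without a cell state, so neither set is called naive or RA here. Its columns headed by genotype alone were taken as liver, because only the liver samples' labels name that table and liver has no 5mC column. The heading itself names no tissue, and every liver value below rests on this reading.

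At an imprinted locus the copies inherited from mother and father are expressed unequally. Within each of these 10 loci the oocyte lays down methylation on a region that the sperm leaves unmethylated. The windows used here also take in sequence around such regions. After fertilisation most of the genome is demethylated. Factors such as ZFP57, a zinc finger protein that binds the methylated hexamer TGCCGC, keep the oocyte's methylation on the maternal copy. Body tissues therefore carry methylation on 1 copy only, and a bisulfite assay that does not separate the copies reads an intermediate level. Culture in 2i is known to lower methylation across the genome of mESC. In several of these clusters the unmethylated paternal copy expresses a long noncoding RNA, such as Kcnq1ot1, Airn or Nespas, that silences neighbouring genes.

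The promoters of 4 members are shown as examples that carry the TGCCGC hexamer, read on both strands. A Grb10 promoter of the same table, and another Mest promoter that overlaps the printed one, carry it too and are not printed. They come from RefSeq on GRCm38.p6, run from 250 bases before to 50 bases after the annotated start, and have CG dinucleotides in capitals. The methylation tables are on mm9 and no conversion between builds was made, so these sequences are not placed within the measured tiles. Mest encodes a hydrolase-family protein, Nnat a small membrane proteolipid, Plagl1 a zinc finger transcription factor and Snrpn a protein of the splicing machinery.
Mest, chr6:30737800-30738099, plus strand: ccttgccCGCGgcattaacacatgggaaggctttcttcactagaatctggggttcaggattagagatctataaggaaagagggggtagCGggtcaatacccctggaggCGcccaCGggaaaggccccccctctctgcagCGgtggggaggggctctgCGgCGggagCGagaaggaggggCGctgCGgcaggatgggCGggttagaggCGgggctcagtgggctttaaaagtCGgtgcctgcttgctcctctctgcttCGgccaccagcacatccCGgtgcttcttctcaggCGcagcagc
Nnat, chr2:157559828-157560127, plus strand: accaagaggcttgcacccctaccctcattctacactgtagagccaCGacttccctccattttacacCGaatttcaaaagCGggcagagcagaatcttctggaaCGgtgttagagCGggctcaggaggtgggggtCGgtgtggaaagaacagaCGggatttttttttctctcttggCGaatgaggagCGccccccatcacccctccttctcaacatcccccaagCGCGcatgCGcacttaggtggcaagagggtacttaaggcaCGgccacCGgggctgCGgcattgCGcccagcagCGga
Plagl1, chr10:13090582-13090881, plus strand: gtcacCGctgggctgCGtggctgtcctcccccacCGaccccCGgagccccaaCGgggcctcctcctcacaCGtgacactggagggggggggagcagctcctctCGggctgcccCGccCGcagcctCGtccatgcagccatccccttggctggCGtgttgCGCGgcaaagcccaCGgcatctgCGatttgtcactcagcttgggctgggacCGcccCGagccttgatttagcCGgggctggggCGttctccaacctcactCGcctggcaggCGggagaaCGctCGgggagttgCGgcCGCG
Snrpn, chr7:60005150-60005449, minus strand: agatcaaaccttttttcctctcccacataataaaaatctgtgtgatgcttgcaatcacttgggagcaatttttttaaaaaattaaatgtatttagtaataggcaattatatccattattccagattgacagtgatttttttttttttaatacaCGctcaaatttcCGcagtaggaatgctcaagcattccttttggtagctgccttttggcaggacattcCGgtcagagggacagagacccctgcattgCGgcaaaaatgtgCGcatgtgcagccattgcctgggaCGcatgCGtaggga

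The Plagl1 promoter held 26 CG dinucleotides, those of Mest and Nnat 17 each and that of Snrpn 7, against a median of 7 over the 32851 promoters of the RefSeq table. TGCCGC occurred 2 times in the Mest sequence and 1 time in each of the other printed promoters. The printed promoters were chosen because they carry it, so its presence in 11.6% of all promoters is background only. Among the 19 promoters found for these loci, those of Airn, Gnas, Igf2r, Kcnq1ot1 and Peg3 had none. A further promoter of Grb10 and of Mest, and the further ones of Snrpn, had none either. The MspI site CCGG occurred 2 times in the Plagl1 sequence, 1 time in each of the other printed promoters, and in 52.8% of all promoters. Of the 12 names looked up, Peg10 and Nespas had no entry.

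Liver and mESC differed in a way that set the imprinted tiles apart from the bulk of the tile table. In liver, 64.9% of member tiles (61 of the 94 with values in both genotypes) stood at 20% to 80% total methylation in WT, against 25.5% of all tiles. Of the 39 member tiles that averaged 20% to 80% over both liver genotypes and had values in both mESC sets, 20 (51.3%) were under 10% in all 4 mESC columns, and these 20 came from 6 loci. Of all such tiles, 4.89% were under 10% in all 4. The windows also take in flanks without that pattern, since 19 of the 94 tiles averaged over 80% and 14 under 20% in liver. No test accompanies these shares, since neighbouring tiles share fragments and the columns are pooled.

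**Figure D1:**
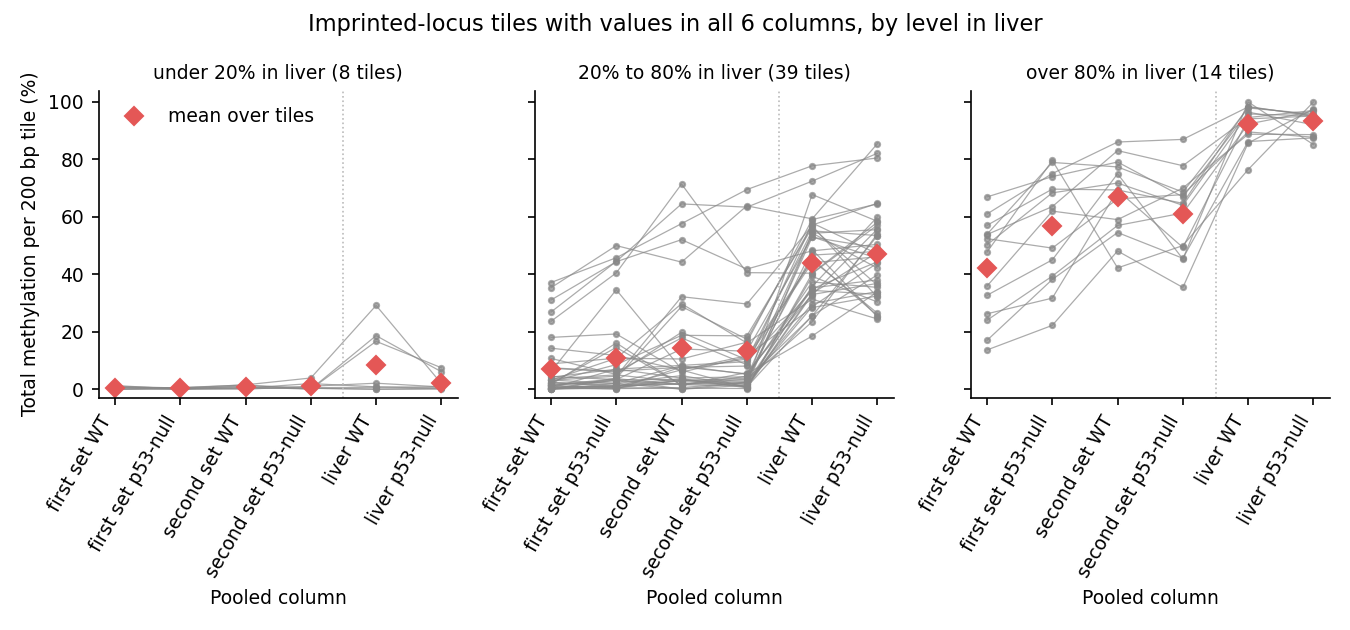
Total methylation (percent) of the 61 imprinted-locus tiles with values in all 6 pooled columns, 1 grey line per tile, split by the mean of both liver genotypes, with diamonds for the mean over tiles. The 39 tiles in the middle panel average 6.92% to 14.3% in the mESC columns and 44.1% and 47.0% in liver, while the 14 tiles of the right panel are already at 42.3% to 67.0% in mESC.

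Read in the other direction, 28 of the 61 tiles with all 6 values were under 10% in every mESC column, and 20 of these 28 (71.4%) averaged 20% to 80% in liver. Among all tiles under 10% in every mESC column, 2370 of 41793 (5.67%) did so. The other 8 member tiles averaged under 20% in liver. Both liver columns lay above all 4 mESC columns at 49 of the 61 tiles (80.3%), against 67.2% of all tiles, and at no member tile did they both lie below all 4. The 3 groups of tiles in the plot by liver level therefore differ in their mESC levels as well: the tiles under 20% in liver had mESC means of 0.27% to 1.00%, and those over 80% had 42.3% in WT and 56.9% in p53-null cells of the first set and 67.0% and 61.0% of the second set.

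Nnat showed the contrast most compactly. The 6 neighbouring tiles at chr2:157385801-157387600 (mm9), which lie at the centre of the window, averaged 52.1% in WT liver and 52.5% in p53-null liver, with single tiles from 31.0% to 68.3% in WT. In the first mESC set the 3 tiles of this stretch with values averaged 1.13% (WT) and 2.54% (p53-null). In the second set 5 tiles had values and averaged 1.81% and 1.79%. Its 22 single CpGs averaged 1.64% in naive WT, 2.55% in naive p53-null, 1.95% in RA WT and 2.09% in RA p53-null cells, and none exceeded 10% in any group. The far end of the window, chr2:157391401-157392000, was near 0 in liver too, at 0.965% in WT and 0.49% in p53-null liver.

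**Figure D2:**
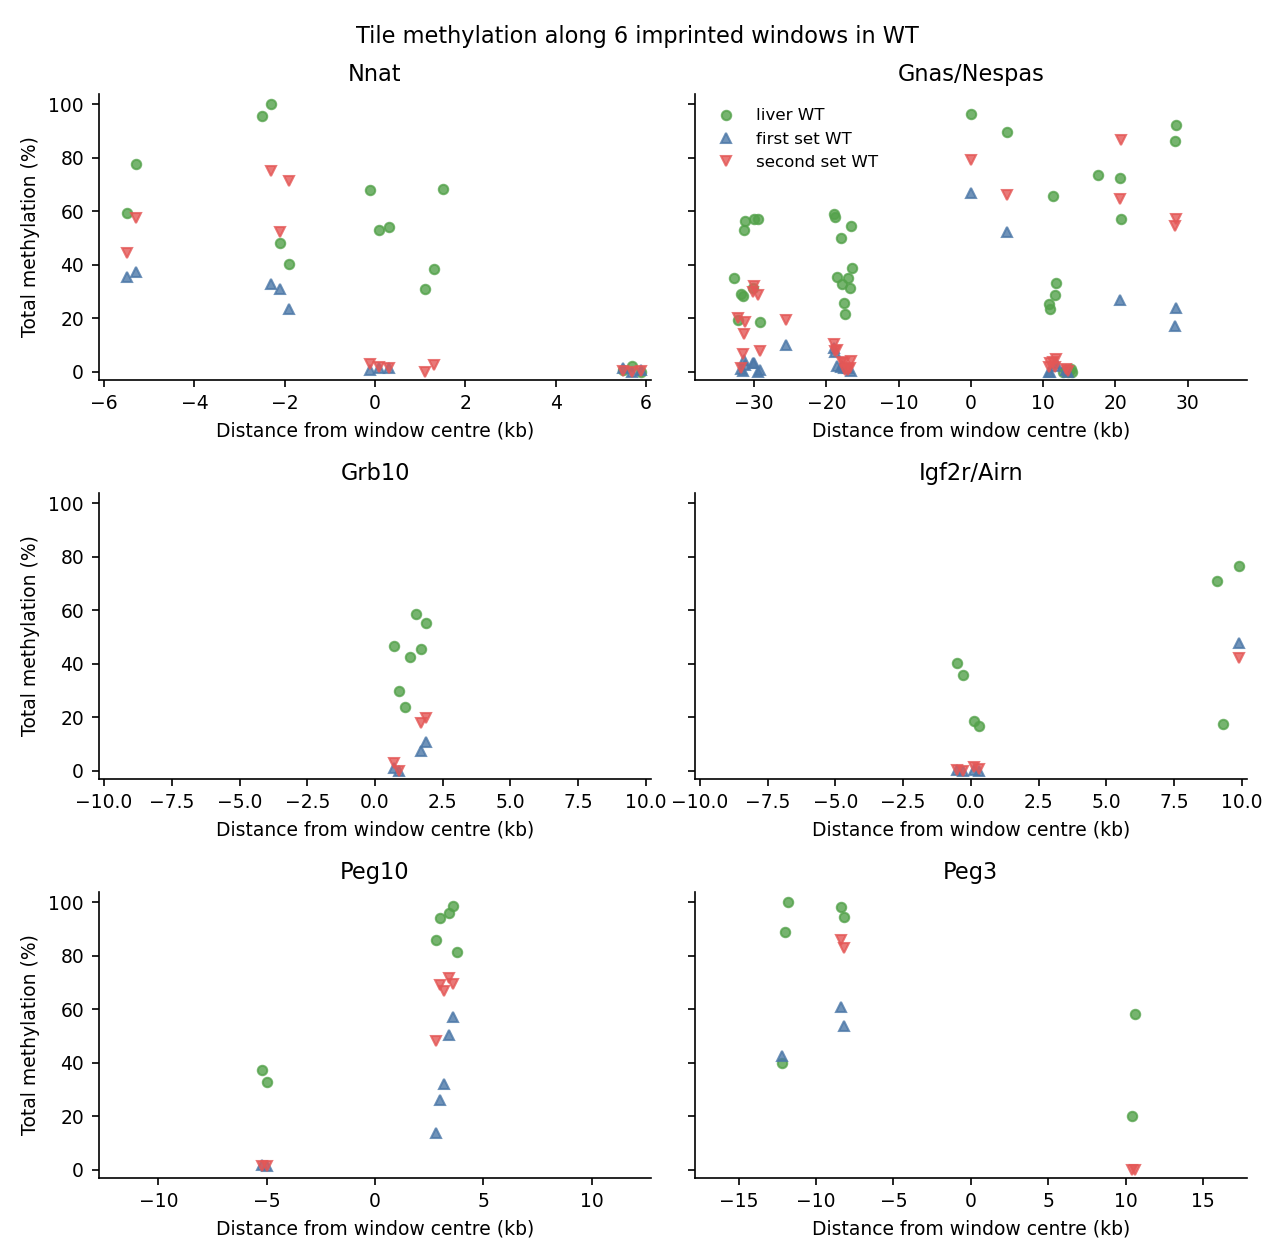
Total methylation (percent) of WT tiles along 6 windows, plotted by distance (kb) from the window's centre, for liver and for both mESC sets. At the centre of Nnat, liver tiles lie between 31.0% and 68.3% while mESC tiles are at or below 3.10%, and further tiles in the same window are intermediate to high in all 3 columns.

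The Gnas/Nespas window spans the imprinted cluster that encodes the stimulatory G protein alpha subunit and the antisense transcript Nespas. It held 3 stretches of this kind. RRBS does not separate the parental copies, so which copy carries the methylation of each stretch was not measured. The stretch at chr2:174123401-174126200 averaged 40.2% in WT and 43.5% in p53-null liver, with all 11 liver tiles at 20% to 80% in both genotypes. Its mESC columns averaged 3.20% to 4.82%, over 8 tiles in the first set and 9 in the second. The stretch at chr2:174109601-174113400 averaged 38.5% and 35.5% in liver. In mESC it stood at 1.90% and 4.04% in the first set (8 tiles) but at 17.7% and 13.5% in the second set (9 tiles). It was the only one of the 3 that was not under 10% in the second set. The stretch at chr2:174153201-174156600 was mixed. Its first 5 tiles with liver values lay between 23.5% and 65.7% in WT liver, and the remaining 6 were at or below 1.14%. In WT mESC it averaged 1.01% over 6 tiles of the first set and 2.40% over 7 of the second.

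Of the loci with a single stretch of this kind, Grb10, which encodes an adaptor protein that dampens insulin receptor signalling, averaged 43.1% in WT and 35.7% in p53-null liver over 7 tiles at chr11:11925601-11927000. Its 4 tiles with mESC values averaged 4.77% (WT) and 3.41% (p53-null) in the first set, with 10.1% and 6.22% in the second. At Igf2r/Airn, where Airn silences the receptor gene Igf2r on the paternal chromosome, the tiles at chr17:12934401-12935400 averaged 27.8% and 32.7% in liver and 0.204% to 1.15% in mESC. The first 2 tiles of this stretch carried most of the liver signal, with 40.2% and 35.7% in WT and 57.1% and 60% in p53-null liver, beside 18.6% and 16.7% in WT and 6.06% and 7.46% in p53-null liver for the others. Kcnq1ot1, the RNA that silences its neighbours on the paternal chromosome, had 39.2% and 39.5% in liver at chr7:150481201-150481600, with 5.15% and 20.8% in the first and 7.62% and 10% in the second mESC set. The 20.8% is the mean of 34.6% at chr7:150481201-150481400 and 6.97% at its neighbour.

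The paternally expressed Peg10, a retrotransposon-derived gene needed in the placenta, averaged 35.1% and 36.1% in liver at chr6:4697201-4697600, with 1.77% (WT) and 15.3% (p53-null) in the first set, then 1.38% and 5.14% in the second. At Peg3, a zinc finger gene, both tiles at chr7:6682801-6683200 were listed at 0 in the second set, in WT and p53-null cells and for total methylation and 5mC, and at 20.3% and 58.3% in WT liver. They had no first-set value. At Plagl1 the tile at chr10:12810601-12810800 stood at 48.6% in WT liver, 25.3% in p53-null liver, and between 2.5% and 4.98% in mESC. Snrpn was less empty in mESC: of the 4 tiles at chr7:67149401-67150200, the 3 with first-set values averaged 17.3% (WT) and 22.1% (p53-null) there. All 4 averaged 7.53% and 4.13% in the second set. In liver the 3 tiles with values in both genotypes averaged 43.9% and 29.8%. The remaining tile, chr7:67149601-67149800, stood at 81.8% in WT liver and had no p53-null value. The Mest stretch at chr6:30685201-30685600, with 9.76% (WT) and 27.9% (p53-null) in the first set, then 29.8% and 17.6% in the second, had no liver value.

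Single CpGs gave the same loci by cell state, since the CpG table labels its columns naive or RA. The 170 member CpGs averaged 7% in naive WT, 9.38% in naive p53-null, 12.8% in RA WT and 11.4% in RA p53-null cells, below the means of all CpGs in each group (9.77%, 12.6%, 16.3% and 15.1%). Igf2r/Airn was lowest, with 6 CpGs at 0% to 3%, and Peg3 highest, with 3 CpGs that lie outside its near-empty stretch at 40% to 87%. CpGs of 1 MspI fragment are read together and are not independent observations.

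**Figure D3:**
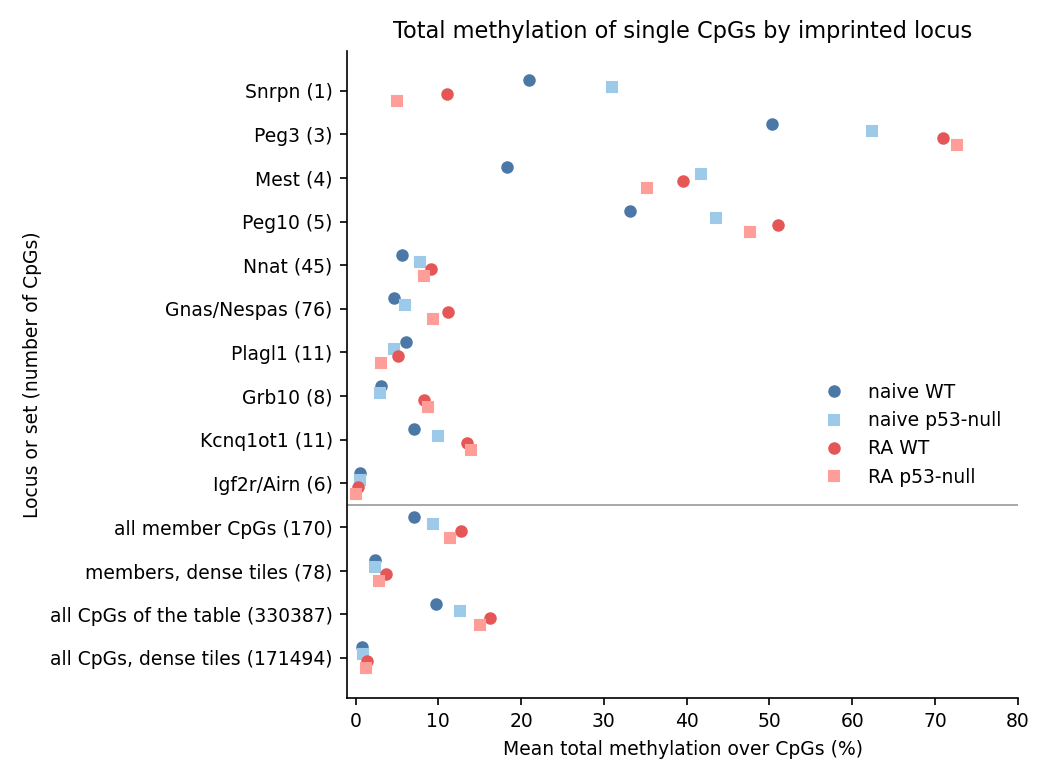
Mean total methylation (percent) of single CpGs per locus in the 4 mESC groups, with the number of CpGs in parentheses and, below the line, the means over all members, over members in tiles with at least 5 measured CpGs, and over the whole table. Peg3, Peg10 and Mest, with 3, 5 and 4 CpGs, lie at 18.3% to 72.7%, and the 6 loci from Nnat to Igf2r/Airn at or below 13.9%.

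CpG density separated the members further. In tiles with at least 5 measured CpGs, called dense here, the 78 member CpGs averaged 2.31%, 2.37%, 3.68% and 2.81% in the order naive WT, naive p53-null, RA WT and RA p53-null, and the highest value was 13%. None of the 78 stood at 20% to 80% in any group. Of all dense CpGs, 0.688%, 0.869%, 1.51% and 1.38% did in the same order, so the member share is near that of the table. Dense CpGs of the whole table averaged 0.763%, 0.891%, 1.37% and 1.28%, so the imprinted ones were higher in all 4 groups, though low. In tiles with 1 to 4 CpGs the order was the opposite, with 92 members at 11%, 15.3%, 20.5% and 18.7% against 19.5%, 25.2%, 32.3% and 30.0% over the table.

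The tile with the most measured CpGs shows this for each dense locus. In the Nnat tile at chr2:157386001-157386200, 10 CpGs ranged from 0% to 2% in naive WT, 0% to 10% in naive p53-null, and 0% to 4% in both RA groups. In the Plagl1 tile at chr10:12810601-12810800, 11 CpGs ranged from 0% to 10% in naive WT and from 2% to 5% in RA p53-null cells. In the Kcnq1ot1 tile at chr7:150481401-150481600, 9 CpGs had means of 4.44%, 7%, 8.44% and 9.44% in the order given above. The Gnas/Nespas tile at chr2:174125201-174125400 held 13 CpGs with means of 1.85%, 1.46%, 7.46% and 1.85%. In RA WT cells each stood at the same 7%, except chr2:174125283-174125284 at 13%. These CpGs may have been read on the same fragments at unknown depth, so they are not 13 separate gains. The 5 CpGs of the Grb10 tile at chr11:11925601-11925800 had means of 0.40%, 0.80%, 2.40% and 5%.

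RA-treated cells had more methylation than naive cells at the members, by 5.76 points in WT (6.48 over all CpGs) and by 2.05 points in p53-null cells (2.49 over all CpGs). In WT, 30 member CpGs (17.6%) were at least 10 points higher in RA cells, where 23.8% of all CpGs were, and 1 was at least 10 points lower, where 0.802% were. In p53-null cells, 17 (10%) were at least 10 points higher, where 14.1% of all CpGs were, and 3 were at least 10 points lower, where 4.46% were. Both shares of higher CpGs were below those of the whole table. At 25 points, 16 CpGs were higher in RA than in naive WT cells, where 11.7% of all were, and 0 lower, where 0.066% were. In the p53-null comparison 3 were higher, where 4.29% were, and 1 lower, where 0.864% were. Naive cells were grown on feeder cells and RA cells were not, so cell state and feeder DNA cannot be told apart.

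The largest RA differences lay outside the dense tiles. The CpG at chr2:157384039-157384040 in the Nnat window stood at 27% in naive WT and 87% in RA WT. In the Gnas/Nespas window, chr2:174170685-174170686 stood at 36% and 88%, and chr2:174170813-174170814 at 20% and 59% in WT and at 34% and 66% in p53-null cells. Also in p53-null cells, chr2:174112277-174112278 stood at 3% in naive and 29% in RA cells, and chr2:174147577-174147578 at 54% and 80%. The only member CpG at least 25 points lower in RA cells, in either genotype, was the Snrpn CpG at chr7:67149740-67149741, with 31% in naive and 5% in RA p53-null cells and 21% and 11% in WT.

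Among the stretches that were intermediate in liver and under 10% in naive WT cells, the first of the Gnas/Nespas window differed most between states in WT. Its 24 CpGs averaged 0.67% in naive WT, with 19 at 0 and none above 4%, and 8.96% in RA WT, with 6 at 20% or more and a highest value of 31%. For p53-null cells these means were 1.58% and 6.88%. The third stretch of the window averaged 2.08% in naive WT and 6.24% in RA WT over 25 CpGs, and 2.92% and 3.68% in p53-null cells. Of these 25 CpGs, 13 lie in the tile at chr2:174125201-174125400 described above, with nearly equal values in RA WT cells. The central Nnat stretch differed by 0.32 points between the states in WT and by -0.45 points in p53-null cells.

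**Figure D4:**
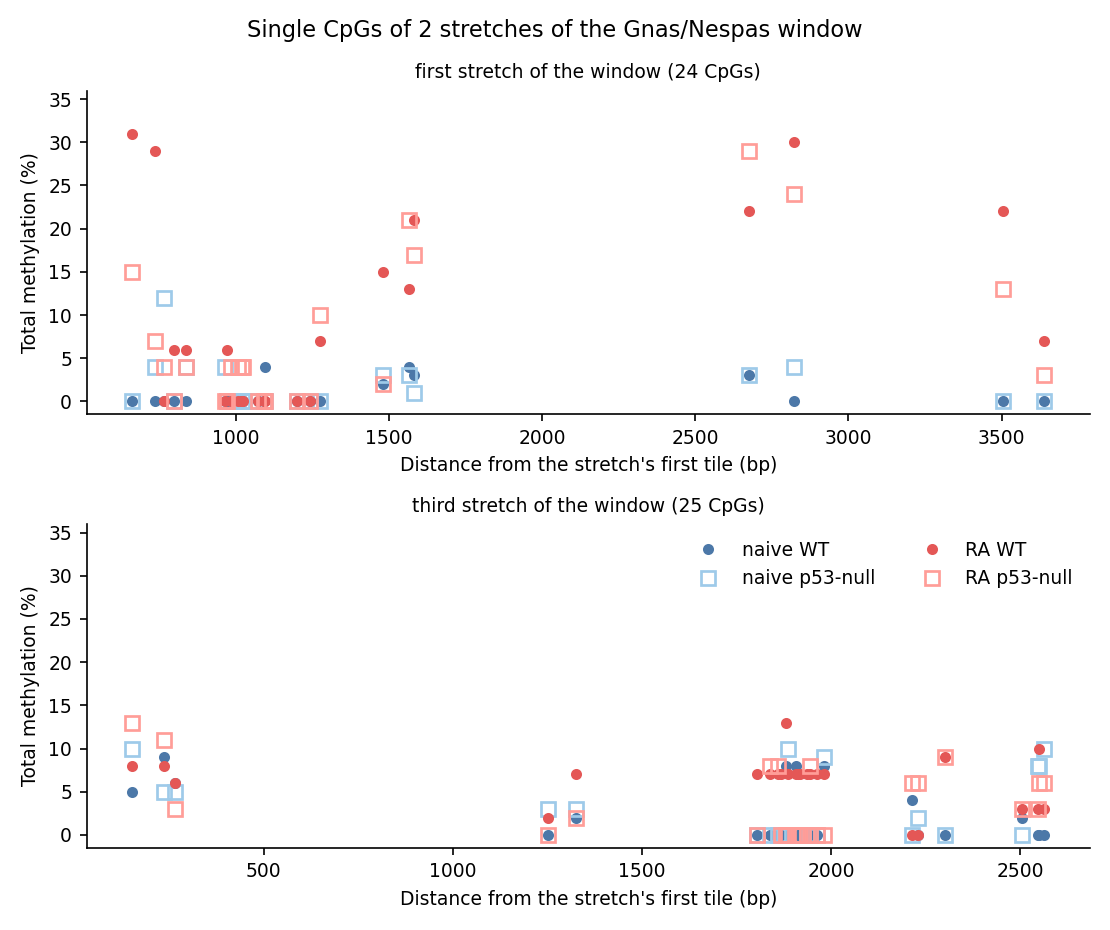
Total methylation (percent) of single CpGs in the first and the third stretch of the Gnas/Nespas window, by distance (bp) from the start of each stretch's first tile, in the 4 mESC groups. In the first stretch naive WT CpGs stay at or below 4% while RA WT CpGs reach 31%, and in the third stretch no CpG exceeds 13% in any group.

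Loss of p53 went with higher methylation at the members in naive cells and lower methylation in RA cells, as over the whole table. In naive cells the members averaged 2.38 points more in p53-null than in WT (2.82 over all CpGs). At least 10 points higher were 20 member CpGs (11.8%), where 14% of all CpGs were, and 2 were at least 10 points lower, where 1.88% were. At the limit of 25 points there were 4 higher, where 3.75% of all CpGs were, and 0 lower, where 0.192% were. In RA cells the members differed by -1.34 points in p53-null minus WT cells (-1.17 over all CpGs). Here 13 (7.65%) were at least 10 points lower, where 9.1% of all CpGs were, and 3 were at least 10 points higher, where 3.45% were. At 25 points there were 2 lower, where 1.15% of all CpGs were, and 0 higher, where 0.281% were. Within the dense member tiles the naive difference was 0.06 points.

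The naive differences of at least 25 points with the largest size, 1 per tile, were at chr2:174170685-174170686 in Gnas/Nespas (36% in WT, 73% in p53-null), chr6:30693036-30693037 in Mest (53% and 84%) and chr2:157383862-157383863 in Nnat (30% and 58%). In RA cells the Nnat CpG at chr2:157384039-157384040 stood at 87% for WT and 50% for p53-null cells. All of these lie in stretches with few measured CpGs that were also methylated in WT cells.

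The authors' q-values bear on the same comparison by tile. A tile was counted as called when the q-value was under 0.05 and the difference at least 10 points. In the first set, p53-null cells were called higher in total methylation at 16 of 69 member tiles (23.2%), where the authors' deposited table calls 28.1% of all tiles, and lower at none, where it calls 0.787%. For 5mC the authors' deposited table calls 17 member tiles (24.6%) higher, where it calls 36.6% of all tiles, and 3 lower, where it calls 6.03%. For the second set, the same comparison in the authors' deposited table calls 1 of 77 member tiles higher in total methylation, where it calls 0.481% of all tiles, and 5 (6.49%) lower, where it calls 3.65%. For 5mC of the second set the authors' deposited table calls 3 member tiles higher, where it calls 2.81%, and 6 (7.79%) lower, where it calls 12.3%.

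**Figure D5:**
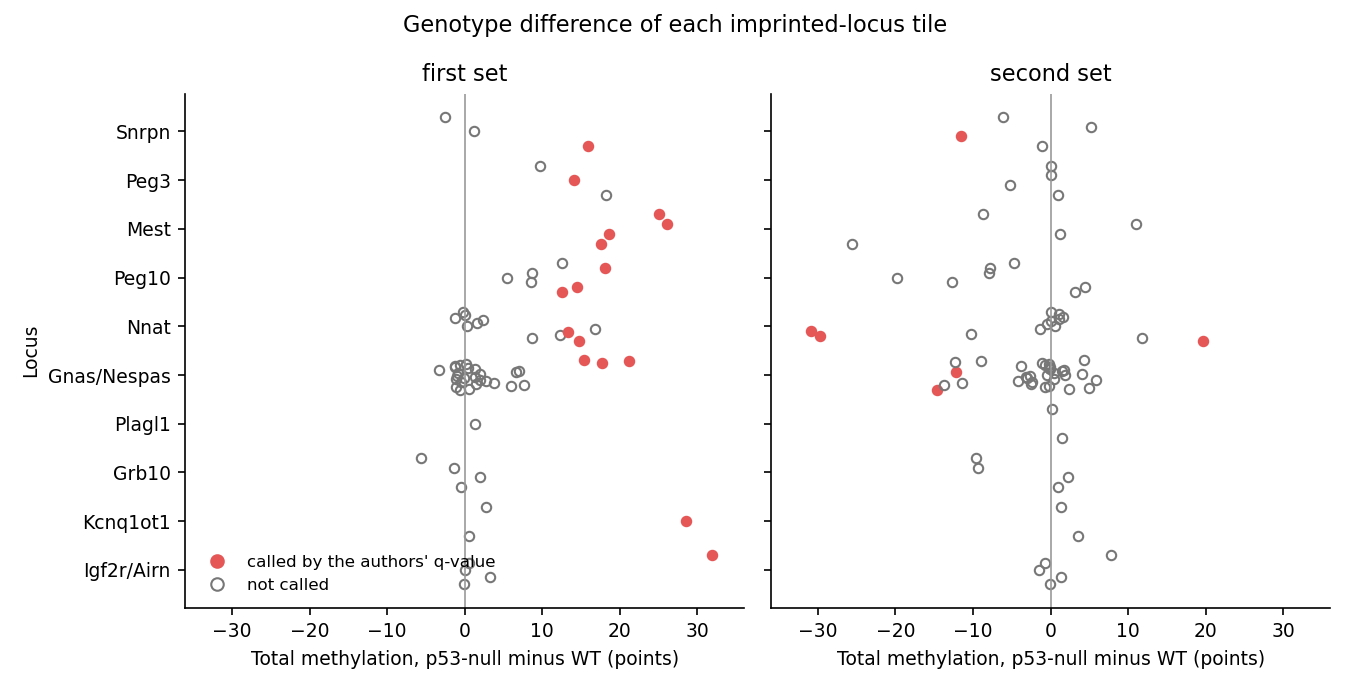
Difference in total methylation (percentage points, p53-null minus WT) of every member tile with values in the first (left) and second set (right), by locus, with filled points where the authors' deposited table has q under 0.05 and the difference is at least 10 points. In the first set the 16 called tiles all lie to the right of 0, and most tiles of Nnat, Gnas/Nespas, Grb10 and Igf2r/Airn lie near 0.

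The calls of the first set were spread unevenly over the loci. The authors' deposited table calls higher total methylation at all 4 Mest tiles, 3 of 7 at Peg10, 3 of 28 at Gnas/Nespas, 2 of 11 at Nnat, 1 of 3 at each of Snrpn, Peg3 and Kcnq1ot1, 1 of 5 at Igf2r/Airn and none at Plagl1 or Grb10. Split by liver level, the authors' deposited table calls 6 of the 41 member tiles that average 20% to 80% in liver higher (14.6%), where it calls 31.7% of all such tiles. Of the 14 member tiles over 80% in liver the authors' deposited table calls 7 higher (50%), where it calls 39.5%. Of the 8 under 20% in liver the authors' deposited table calls none higher, where it calls 3.02%.

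The largest called differences in total methylation of the first set were at 4 tiles. The Igf2r/Airn tile at chr17:12944801-12945000, away from the stretch near 0, stood at 47.7% for WT and rose to 79.6% for p53-null cells (q = 0.000739, per the authors' deposited table). The Kcnq1ot1 tile at chr7:150481201-150481400 rose from 6.12% to 34.6% (q = 0.00053, per the authors' deposited table), while its neighbour 200 bp on stood at 4.17% and 6.97%. The only single CpG measured in the called tile, chr7:150481374-150481375, did not show such a rise. It stood at 6% in naive WT, 8% in naive p53-null, 13% in RA WT and 11% in RA p53-null cells. Mest rose from 35.9% to 62.0% at chr6:30692801-30693000 (q = 4.07e-05, per the authors' deposited table) and from 53.9% to 78.9% at chr6:30693001-30693200 (q = 0.0108, per the authors' deposited table). In liver the 2 Mest tiles were at 88.8% and 97.9% in WT.

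Calls also fell within stretches that were near 0 in WT cells, among them the Kcnq1ot1 tile above. At Peg10, chr6:4697201-4697400 rose from 1.97% to 14.5% and chr6:4697401-4697600 from 1.57% to 16.1% in total methylation, both with a q-value written as 0 in the authors' deposited table. In 5mC these tiles rose from 0.38% to 20.2% and from 1.78% to 29.6%, also with q written as 0 in the authors' deposited table. The p53-null 5mC value thus exceeded the total value at both tiles, by 5.65 and 13.5 points, although total methylation includes 5mC. At Mest, chr6:30685401-30685600 rose from 6.47% to 25.1% in total methylation (q = 6.42e-12, per the authors' deposited table) and from 3.26% to 13.4% in 5mC (q = 8.04e-05, per the authors' deposited table). Neither the Peg10 nor the Mest tiles of these stretches were called in the second set of the authors' deposited table. There both Peg10 tiles had q under 0.05 for total methylation, with p53-null cells higher by less than 10 points. Of the Gnas/Nespas stretches near 0, 5mC rose from 1.58% to 13.8% at chr2:174112401-174112600 in the first set (q = 1.24e-10, per the authors' deposited table). Total methylation of that tile was 3.12% and 4.52%. At chr2:174124601-174124800 5mC fell from 11.6% to 0.642% in the second set (q written as 0 in the authors' deposited table), where total methylation was 3.67% and 0.489%.

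Further 5mC calls of at least 25 points in the first set were at 4 tiles. Peg3 at chr7:6660201-6660400 rose from 0 to 78.8% (q written as 0 in the authors' deposited table), where the total values were 42.6% and 60.9% and not called. Igf2r/Airn at chr17:12944801-12945000 rose from 38.0% to 89.8% (q = 1.80e-09, per the authors' deposited table). Gnas/Nespas at chr2:174163001-174163200 rose from 26.6% to 58.5% (q = 4.07e-11, per the authors' deposited table), and Nnat at chr2:157380401-157380600 from 10.2% to 40.5% (q = 1.94e-10, per the authors' deposited table). At Peg3, Igf2r/Airn and Gnas/Nespas these p53-null 5mC values exceeded total methylation, which includes 5mC and stood at 60.9%, 79.6% and 44.5%. At Nnat the p53-null total was 50%, above its 5mC. The 3 tiles called lower in 5mC were neighbours at Peg10, chr6:4705201-4705800, where 5mC fell from 16.7% to 1.72%, from 17.9% to 1.59% and from 41.0% to 22.5% in the authors' deposited table.

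Snrpn, whose loss of expression from the paternal chromosome belongs to Prader-Willi syndrome in people, had tiles called higher in 5mC in both sets, in the second at 1 of 4. In the first set all 3 of its tiles rose in 5mC, from 0 to 16.9%, from 8.76% to 33.2% and from 0.30% to 14.7%, and the authors' deposited table calls each of them. Total methylation of these tiles was 19.5%, 18% and 14.3% in WT and 35.4%, 19.2% and 11.7% in p53-null cells, with the first alone called (q = 0.0215, per the authors' deposited table). The tile at chr7:67149601-67149800 fell, in the second set, in total methylation from 13.3% to 1.72% (q = 0.0307, per the authors' deposited table) and rose in 5mC from 1.27% to 11.3% (q = 0.000442, per the authors' deposited table).

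The called differences of at least 25 points in the second set included 2 neighbouring tiles in the flank of Nnat. Total methylation fell from 75.0% to 45.3% at chr2:157383601-157383800 (q = 0.0484, per the authors' deposited table) and from 71.4% to 40.6% at chr2:157384001-157384200 (q = 0.0496, per the authors' deposited table), where 5mC fell from 70% to 37.5% (q = 0.0276, per the authors' deposited table). At Gnas/Nespas, 5mC fell from 100% to 57.1% at chr2:174163201-174163400 (q = 0.00341, per the authors' deposited table), where total methylation was 86.7% and 74.4%. At Peg10, 5mC rose from 6.67% to 38.5% at chr6:4705401-4705600 (q = 0.0357, per the authors' deposited table), where total methylation was 69.2% and 49.4%. In the first stretch of Gnas/Nespas, the tile at chr2:174110201-174110400 fell from 20% to 5.37% (q = 0.00983, per the authors' deposited table).

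Total methylation minus 5mC, the estimate of 5hmC, was small on average. Over the member tiles of the first set it was 5.0 points (WT) and 5.30 points (p53-null cells; 5.96 and 5.10 over all tiles), and over those of the second set 2.39 and 1.18 points (1.96 and 2.84 over all tiles). At least 10 points were reached by 13 of 69 member tiles in WT (18.8%) and 17 in p53-null cells (24.6%) of the first set, against 31.7% and 30.5% of all tiles. At or below -10 points, below what a modification level can be, were 0 and 6 member tiles (8.7%), against 8.09% and 11% of all tiles. In the first set the estimate was 1.03 points (WT) and 2.47 points (p53-null) in the central Nnat stretch and 0.915 and -0.0225 points in the third Gnas/Nespas stretch. It was further from 0 for p53-null cells at chr7:150481201-150481600 of Kcnq1ot1, with 3.68 and 15.2 points, and at chr6:4697201-4697600 of Peg10, with 0.689 and -9.56 points. The 15.2 points of Kcnq1ot1 came mostly from chr7:150481201-150481400, at 26.9 points, while its neighbour stood at 3.40 points. The Snrpn tiles averaged 14.3 points in WT and 0.52 in p53-null cells of the first set.

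In liver the genotypes had similar means over the 94 member tiles, 47.8% in WT and 49.6% in p53-null, while single tiles differed widely. At least 10 points higher in p53-null liver were 24 tiles (25.5%), where 13.6% of all tiles were, and 17 (18.1%) were at least 10 points lower, where 14.6% were. These shares were not matched for level: 64.9% of member tiles but 25.5% of all tiles stood at 20% to 80% in WT liver. Whether the member shares exceed those of all tiles at like levels was not tested. No q-value for liver was used. Snrpn averaged 43.9% in WT and 29.8% in p53-null liver over the 3 tiles with both values, all lower in p53-null. Its other tile had 81.8% in WT liver and no p53-null value. The Gnas/Nespas tiles at chr2:174153201-174153600 were at 25.5% and 23.5% in WT against 53.4% and 54.1% in p53-null liver. The central Nnat stretch, the Peg10 stretch at chr6:4697201-4697600 and the Kcnq1ot1 stretch at chr7:150481201-150481600 had liver means that differed by 0.41, 1.00 and 0.32 points between genotypes. Whether any of these liver differences exceeds the spread between the 3 livers of each genotype was not tested.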

How the data were processed

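DNA was cut with MspI before either bisulfite protocol, per the labels' protocols. Trim Galore, BSMAP, methylKit and the build mm9 are named in the submitters' processing notes; the sources used here give no roles, versions, coverage filters or pooling steps. Single CpGs carry whole percent values of total methylation deposited by the authors, 1 column per group. Tiles carry fractions deposited by the authors, per the file headers for total methylation and 5mC, multiplied here to percent, with q-values deposited by the authors (a value of -1 was taken as none). Of the CpG and tile tables, 4 and 2 further columns of values with undefined headings were not used. Depth is unknown, so no interval is given.

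Members are CpGs and tiles that start inside the 10 windows; 17 Gnas/Nespas CpGs lie in tiles not listed in the tile table. The members and lists were chosen with earlier results of these data known. Planned tests on read counts or on library values were replaced by descriptions, since the tables are pooled. Means count each CpG or tile once. Calls need q under 0.05 and 10 points. A stretch joins tiles of a window with gaps up to 1000 bp, a rule added after seeing the data. The genes named are all 10 loci, the tile with most CpGs per locus, called tiles of at least 25 points, and the 3 largest CpG differences each way of at least 25 points, 1 per tile. Values named beyond this rule were chosen after they were seen. No annotation on mm9 was used, so positions carry no exon or intron. The counting rules were tested on simulated data. Python 3.11.15, numpy 2.4.6, pandas 2.3.3 and matplotlib 3.10.9 were used.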

Additional observations from a re-analysis of the deposited data

How the results depend on the processing

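No paired analysis was possible because the deposited columns are pooled over libraries, so leaving out a replicate could not be done either. No interval follows from the tables, so a value was taken as changed when it moved by over 1.5 times. Of 85 alternatives for the main results, 50 stayed within that factor, 34 moved beyond it and 1 reversed sign; the cause was not tested, beyond the fewer CpGs or tiles that a setting leaves. The unknown depth limits the precision, and Snrpn, Peg3 and Mest had 1, 3 and 4 measured CpGs.

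The mean over members depended on how CpGs were weighted. With each tile counting once it was 12.5%, 16.9%, 22.3% and 20.7% in naive WT, naive p53-null, RA WT and RA p53-null cells, and in dense tiles alone 2.31%, 2.37%, 3.68% and 2.81%. The naive genotype difference was 6.07 points with each locus counting once and 0.0641 points in dense tiles. The RA genotype difference was -0.87 points in dense tiles. The difference of RA from naive WT cells was 1.37 points in dense tiles. In p53-null cells the RA difference was 0.936 points without the Gnas/Nespas window, 0.436 points in dense tiles, and reversed to -0.66 points with each locus counting once.

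At 25 points in place of 10, the member CpGs past the limit numbered 4 higher and 0 lower for naive p53-null against WT, 0 higher and 2 lower for RA p53-null against WT, 16 higher and 0 lower for RA against naive WT, and 3 higher and 1 lower for RA against naive p53-null. With 30% to 70% as the intermediate range, 8.24% of member CpGs were intermediate in naive WT, against 12.4% with the main range. Over all CpGs these naive WT shares were 13.3% and 18.6%. Member CpGs were thus less often intermediate than those of the whole table with either range.

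At 25 points and q under 0.01, 3 tiles are called by the authors' deposited table as higher in total methylation of the first set, 5 higher and 0 lower in 5mC of the first set, 0 either way in total methylation of the second set, and 0 higher and 1 lower in its 5mC. For any size and q under 0.05, the authors' deposited table calls 1 tile lower in total methylation of the first set, 4 higher and 10 lower in that of the second set, and 10 higher in 5mC of the second set. These are counts of member tiles, of 69 in the first set and 77 in the second. Shares of all tiles at these limits were not computed, so the counts allow no comparison with the whole table.

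The share of liver-intermediate member tiles under 10% in every mESC column, 51.3%, was 55.9% with 30% to 70% in liver, 45% without the Gnas/Nespas window and 38.5% with a limit of 5%, settings chosen after seeing the data.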
